A study of Mus musculus with 6 samples.

Results

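The 10 transcripts described here encode proteins that fold secretory and membrane proteins in the endoplasmic reticulum (ER), a transcription factor that controls them, and proteins that remove what fails to fold. They are the chaperones Calr and Canx, the disulphide isomerases Pdia3, Pdia4, Pdia6 and P4hb, the transcription factor Xbp1, and Herpud1, Sel1l and Edem1 of ER-associated degradation (ERAD). They were chosen by gene symbol, and each matched 1 row of the 19832 genes in the deposited table. All 10 passed the filter on low values.

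RNA was sequenced from EO771, a cell line derived from a mouse mammary tumour. The control group held 3 libraries of cells without added protein, and the LCN2 group held 3 libraries of cells given recombinant lipocalin-2 (LCN2), a secreted carrier of small lipophilic molecules, siderophores with iron among them. The labels name no genotype and no other agent, dose, exposure time or vehicle. Whether replicates were separate cultures is not said, so a p-value covers only the spread among these 6 libraries, which could be technical.

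New glycoproteins that enter the ER are bound through their trimmed sugars by calnexin, which sits in the membrane, and calreticulin, which is soluble, while disulphide isomerases form and exchange their disulphide bonds. Misfolded glycoproteins are marked by mannose trimming, moved back to the cytosol through a complex around the ubiquitin ligase HRD1 and degraded by the proteasome. When unfolded proteins accumulate, the sensors IRE1, ATF6 and PERK start the unfolded protein response. IRE1 splices Xbp1 mRNA to its active form, cleaved ATF6 acts on ER stress response elements in promoters, and PERK raises translation of ATF4. The table gives 1 value per gene, so spliced and unspliced Xbp1 mRNA are counted together.

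Promoter sequence is shown for the 4 members in which a searched element was found, because these elements are the known route from the unfolded protein response to the folding genes. Each sequence is from RefSeq on GRCm38.p6, reads 5′ to 3′ on the strand of the gene and ends before the first annotated exon. Where the GENCODE exon starts upstream of the RefSeq start the printed sequence is shorter than the 250 bases searched, by 3 bases in Calr and 44 in Pdia6. Capitals mark the ER stress response element ERSE (CCAAT and CCACG with 9 bases between them, on either strand) in Calr, Pdia6 and Canx. In Herpud1 they mark, in order, the ATF4-type element CARE (TTGCATCA) and the second ER stress element ERSE-II (ATTGG and CCACG with 1 base between them). The marked elements do not overlap each other. Elements that cross the end of the 250 bases were not searched. The Herpud1 sequence ends in CCAAT, 9 bases and CCAC, so whether it holds an ERSE across that end is not known.
Herpud1: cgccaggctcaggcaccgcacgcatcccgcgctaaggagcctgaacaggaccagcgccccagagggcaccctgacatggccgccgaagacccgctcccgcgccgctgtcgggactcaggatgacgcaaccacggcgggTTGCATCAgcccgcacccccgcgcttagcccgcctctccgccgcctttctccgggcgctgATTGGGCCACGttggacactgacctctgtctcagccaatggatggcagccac
Calr: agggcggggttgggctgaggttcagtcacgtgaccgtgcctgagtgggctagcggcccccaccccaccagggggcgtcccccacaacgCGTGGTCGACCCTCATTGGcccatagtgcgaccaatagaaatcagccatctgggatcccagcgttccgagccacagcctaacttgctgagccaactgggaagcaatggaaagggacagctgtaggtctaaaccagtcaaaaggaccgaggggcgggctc
Pdia6: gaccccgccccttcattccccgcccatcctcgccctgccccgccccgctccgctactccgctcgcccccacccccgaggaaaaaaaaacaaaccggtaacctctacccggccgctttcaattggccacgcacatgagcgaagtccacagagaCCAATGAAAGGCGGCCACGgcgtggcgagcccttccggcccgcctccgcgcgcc
Canx: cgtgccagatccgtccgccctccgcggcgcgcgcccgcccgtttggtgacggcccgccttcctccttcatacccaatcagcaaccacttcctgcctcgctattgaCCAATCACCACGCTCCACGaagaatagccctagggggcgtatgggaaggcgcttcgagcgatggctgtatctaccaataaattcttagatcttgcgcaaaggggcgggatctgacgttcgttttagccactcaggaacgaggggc
The windows are chr8:94386179-94386428 on the plus strand for Herpud1, chr8:84846935-84847181 on the minus strand for Calr, chr12:17266339-17266544 on the plus strand for Pdia6 and chr11:50325674-50325923 on the minus strand for Canx. Counted upstream of the RefSeq start, CARE spans bases 112 to 105 and ERSE-II bases 52 to 42 in Herpud1. The ERSE spans bases 162 to 144 in Calr, where it lies in reverse orientation, bases 98 to 80 in Pdia6 and bases 145 to 127 in Canx. Among 32851 promoter windows of 250 bases, ERSE was found on either strand in 0.113%, ERSE-II in 0.0304%, CARE in 0.791% and the XBP1-type element UPRE (TGACGTG) in 1.65%. All 10 members had a RefSeq window. The other 6, Xbp1 among them, held none of the 4 elements in these letters, and UPRE was in no member.

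Levels of the members covered a wide range, and the folding enzymes stood at the top. FPKM scales fragments to transcript length and library size, so levels can be set side by side between genes. In every library Calr was highest, followed by Pdia3, P4hb, Canx and Pdia6. Averaged over the 6 libraries as deposited, Calr stood at 339 FPKM, above 98.5% of the 10309 genes tested, Pdia3 at 252, P4hb at 232, Canx at 148 and Pdia6 at 121 FPKM. Pdia4 at 57.7, Xbp1 at 54.5 and Herpud1 at 41.2 FPKM formed a middle group, Edem1 averaged 17.5 and Sel1l 7.0 FPKM. Neighbours in this order whose libraries overlapped were Pdia3 with P4hb, Pdia4 with Xbp1, and Xbp1 with Herpud1. Xbp1 was above Pdia4 in LCN2 replicates 1 and 3 and below it in the other 4 libraries.

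With LCN2, Xbp1 rose and Calr, Pdia6 and P4hb fell, while the other 6 members did not pass the test. Tests were made with limma on log2(FPKM + 1) after scaling between libraries, with p adjusted over all genes by the Benjamini-Hochberg method and a call at an adjusted p under 0.05. Positive log2 fold changes mean a higher value with LCN2, on that scale. Means and SD below are of FPKM as deposited, before scaling, so their ratio can differ from the log2 fold change beside them. Calls in either direction were made in 21.5% of all tested genes, higher in 11.8% and lower in 9.73%, against 1 higher and 3 lower of the 10 members. The median log2 fold change was -0.02 over the members and 0.00078 over all tested genes. The 3 falls were between 0.13 and 0.14 on the log2 scale, and the rise of Xbp1 was 0.27.

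**Figure D1:**
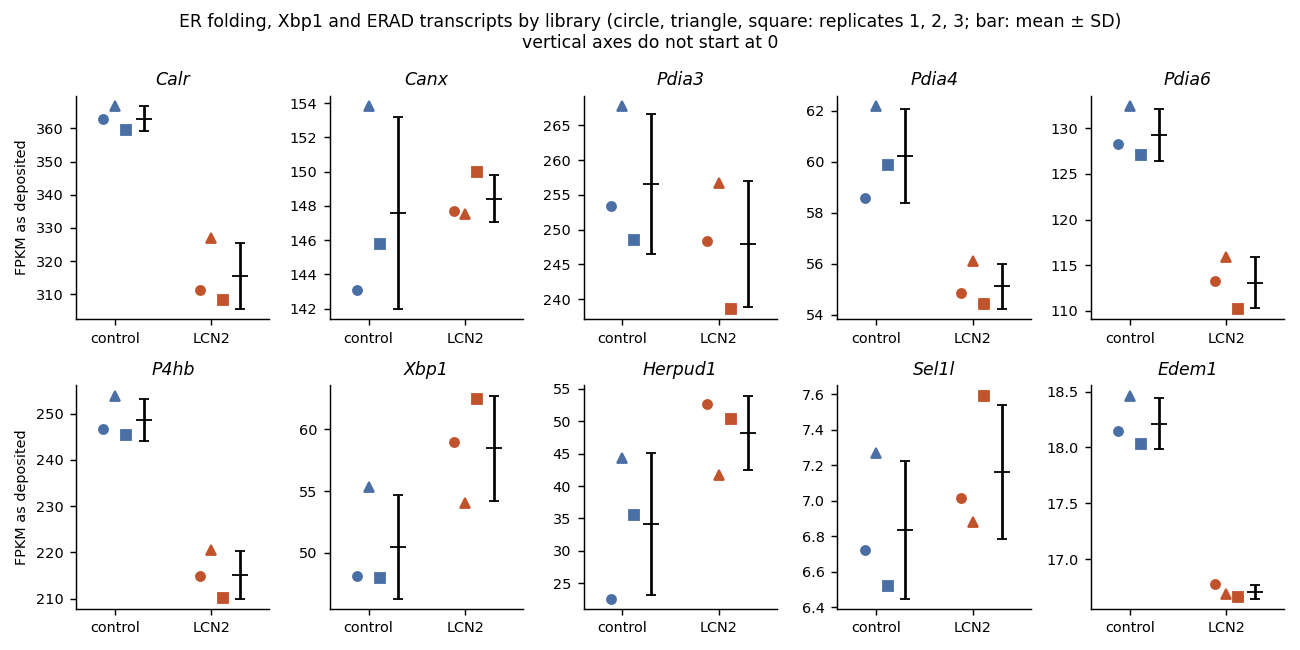
FPKM as deposited (vertical axes, each with its own range, not starting at 0) of the 10 members in control and LCN2 libraries, with the mean and SD of 3 libraries beside the points. Calr, Pdia4, Pdia6, P4hb and Edem1 show separate groups, and in Xbp1 and Herpud1 control replicate 2 lies above LCN2 replicate 2.

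Calreticulin, the soluble lectin chaperone that also buffers calcium in the ER, was the most abundant member and fell. Calr (chromosome 8, 84841850 to 84846934, GRCm38) stood at 363, 367 and 359 FPKM in control replicates 1, 2 and 3 and at 311, 327 and 308 FPKM in LCN2 replicates 1, 2 and 3. All 3 LCN2 libraries were below all 3 controls. The means as deposited were 363 ± 3.73 FPKM in control and 316 ± 9.91 FPKM in LCN2 cells (SD, n = 3 each). After scaling the log2 fold change was -0.14 (SE 0.04, limma adjusted p = 0.034), and with values as deposited it was -0.20.

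Its membrane-bound relative calnexin (Canx, chromosome 11, 50293961 to 50325673) stood at 143, 154 and 146 FPKM in the controls and at 148, 148 and 150 FPKM in LCN2 cells. The groups overlapped as deposited because control replicate 2 was the highest library. The log2 fold change was 0.072 (95% interval -0.0063 to 0.15, limma adjusted p = 0.15), an interval that runs from close to 0 to a small rise.

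P4hb, which encodes protein disulphide isomerase itself and also serves as the beta subunit of collagen prolyl 4-hydroxylase, fell (chromosome 11, 120560298 to 120573253). Its values were 247, 254 and 245 FPKM in control replicates 1 to 3 and 215, 221 and 210 FPKM in LCN2 replicates 1 to 3. The 2 groups were apart by more than the spread within either, at 249 ± 4.60 against 215 ± 5.20 FPKM (SD, n = 3 each; log2 fold change -0.14, SE 0.03, limma adjusted p = 0.024). This was the smallest adjusted p of the 10 members.

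Pdia6, an isomerase known to bind IRE1 and PERK as well as client proteins, also fell (chromosome 12, 17266545 to 17284770). It was at 128, 132 and 127 FPKM in the controls and at 113, 116 and 110 FPKM in LCN2 cells. The groups did not overlap, with means of 129 ± 2.82 and 113 ± 2.83 FPKM (SD, n = 3 each; log2 fold change -0.13, SE 0.03, limma adjusted p = 0.037). Its annotated exons share 50 bases with Atp6v1c2 on the opposite strand, and the table cannot separate such reads.

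Pdia4, an isomerase with an additional redox domain that works in the lumenal chaperone complex with BiP, lay lower in every LCN2 library without passing the test. It stood at 58.6, 62.2 and 59.9 FPKM in the controls and at 54.8, 56.1 and 54.4 FPKM in LCN2 cells (chromosome 6, 47796141 to 47813430). The log2 fold change was -0.062 (95% interval -0.14 to 0.020, limma adjusted p = 0.23). Its exons share 14 bases with the microRNA gene Mir704.

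Pdia3 (ERp57), the isomerase that calnexin and calreticulin recruit to glycoproteins, differed from those that fell in showing overlapping groups. It stood at 253, 268 and 248 FPKM in the controls and at 248, 257 and 239 FPKM in LCN2 cells (chromosome 2, 121413775 to 121438687), with a log2 fold change of 0.014 (95% interval -0.068 to 0.096, limma adjusted p = 0.79). The sign of this difference turned with the scaling, between -0.049 and 0.0097 under the other 4 scalings. Whether Pdia3 responded differently from Calr was not tested. Exons of Pdia3 and of Catsper2 on the opposite strand share 18 bases.

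The 6 folding genes together summed to between 1186 and 1237 FPKM in the control libraries and to between 1072 and 1124 FPKM in the LCN2 libraries. As a share of each column's sum this was 0.299% to 0.301% in control and 0.274% to 0.285% in LCN2 cells. Both ranges are descriptions of libraries, and Calr and P4hb supplied most of the difference.

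Xbp1, the transcription factor that IRE1 activates by splicing its mRNA and that induces folding and ERAD genes, was the only member called higher (chromosome 11, 5520659 to 5525893). It stood at 48.1, 55.3 and 48.0 FPKM in control replicates 1 to 3 and at 58.9, 54.0 and 62.5 FPKM in LCN2 replicates 1 to 3. As deposited the groups overlapped, since control replicate 2 was above LCN2 replicate 2. After scaling these 2 libraries were at 52.1 and 54.6 and the groups no longer overlapped. The means were 50.5 ± 4.19 and 58.5 ± 4.26 FPKM (SD, n = 3 each), with a log2 fold change of 0.27 (SE 0.07, limma adjusted p = 0.030). With values as deposited the log2 fold change was 0.21 and the call was lost (limma adjusted p = 0.074, within a range of 0.0072 to 0.10 over the 15 alternatives for Xbp1).

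**Figure D2:**
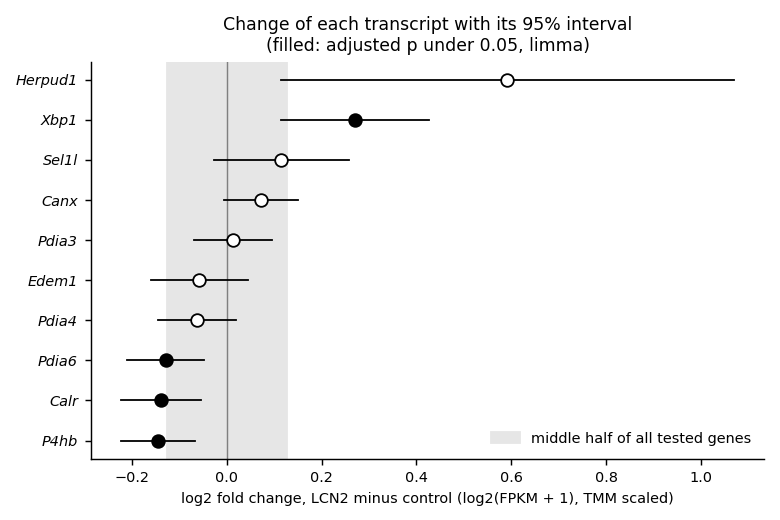
Log2 fold change of each member (horizontal axis, LCN2 minus control on log2(FPKM + 1) after scaling) with its 95% interval, filled where limma's adjusted p was under 0.05, over a band from the first to the third quartile of all tested genes, -0.13 to 0.13. Herpud1 has the highest estimate, 0.59, and the widest interval, 0.11 to 1.07, and the 3 falls lie at or just beyond the edge of the band.

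Herpud1, a membrane protein of the HRD1 complex that both ER stress and ATF4 are known to induce, had the largest estimated change of the members and the widest spread. It stood at 22.6, 44.3 and 35.5 FPKM in control replicates 1 to 3 and at 52.6, 41.7 and 50.3 FPKM in LCN2 replicates 1 to 3 (chromosome 8, 94386438 to 94395377). Control replicate 1 was far below the other controls, and control replicate 2 was above LCN2 replicate 2 as deposited, whereas after scaling they stood at 41.7 and 42.1. The means were 34.1 ± 10.9 and 48.2 ± 5.77 FPKM (SD, n = 3 each), with a log2 fold change of 0.59 (SE 0.20, limma adjusted p = 0.075), which did not pass. It was 0.34 without control replicate 1 (limma adjusted p = 0.11) and 0.77 without control replicate 2, where it passed (limma adjusted p = 0.037). Over all 15 alternatives its adjusted p lay between 0.037 and 0.20.

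The remaining ERAD members were lower in level and did not pass. Sel1l, the adaptor that holds the HRD1 ligase complex together (chromosome 12, 91806043 to 91849157), stood at 6.72, 7.27 and 6.52 FPKM in control and at 7.02, 6.88 and 7.59 FPKM in LCN2 cells. Its groups overlapped as deposited, and the log2 fold change was 0.11 (95% interval -0.027 to 0.26, limma adjusted p = 0.20). Edem1, a mannosidase-like protein that extracts misfolded glycoproteins from the calnexin cycle (chromosome 6, 108828641 to 108859356), stood at 18.1, 18.5 and 18.0 FPKM in control and at 16.8, 16.7 and 16.7 FPKM in LCN2 cells. All LCN2 libraries were below the controls, with a log2 fold change of -0.057 after scaling (95% interval -0.16 to 0.044, limma adjusted p = 0.36).

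After scaling, the control and LCN2 libraries did not overlap in 9 of the 10 members, all but Pdia3, where 44.5% of all tested genes showed no overlap. As deposited this held for 5 members, Calr, Pdia4, Pdia6, P4hb and Edem1, against 42.7% of all tested genes. LCN2 replicate 2 lay nearest to the control mean in 8 of the 10 members, and control replicate 2 nearest to the LCN2 mean in 7. Across all tested genes LCN2 replicate 2 was also the treated library closest to the controls on the first principal component, at 4.34 against 15.7 and 16.5, with controls between -17.3 and -8.09.

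No member was called when replicate 1 or 3 of the controls, or 1 or 3 of the LCN2 group, was left out, fits in which limma called, in that order, 6.19%, 4.49%, 2.6% and 4.63% of all tested genes. In these 4 fits the 4 members called with every library kept their direction with an adjusted p of up to 0.13. Without LCN2 replicate 2, where 30.7% of genes were called, the calls were again Calr, Pdia6, P4hb and Xbp1. Without control replicate 2 they were Calr, P4hb, Xbp1 and Herpud1, with 17.4% of genes called.

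**Figure D3:**
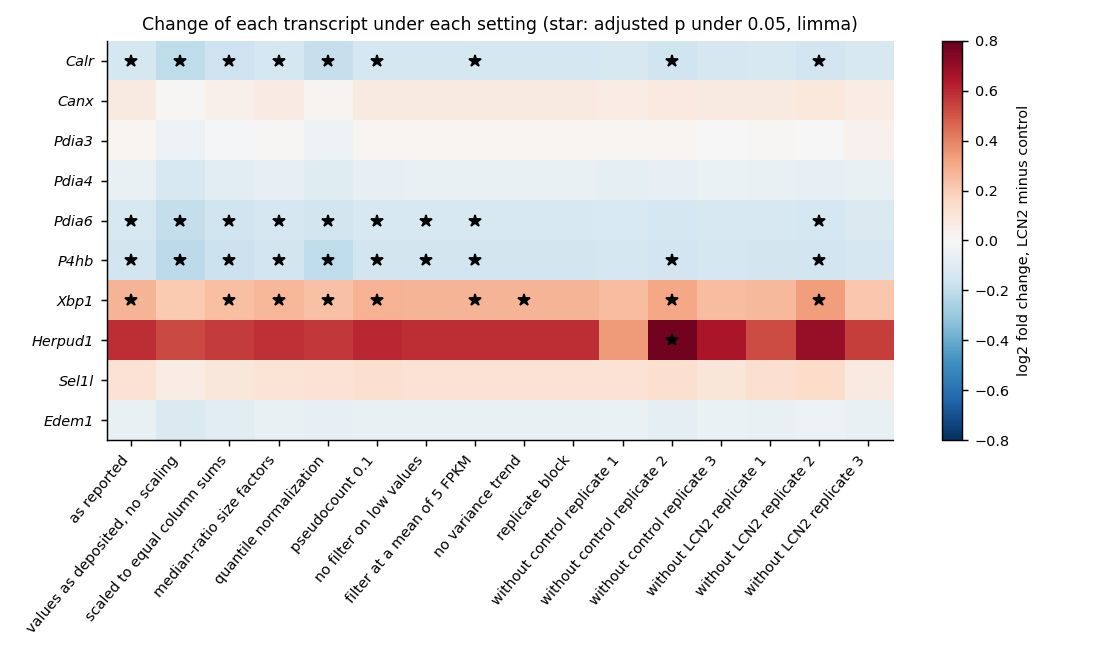
Log2 fold change of each member (rows, colour scale) under each setting (columns), with a star where limma's adjusted p was under 0.05. Calr, Pdia6, P4hb and Xbp1 are starred in every column that changes the scaling or pseudocount, except Xbp1 with values as deposited, and no member is starred with the replicate block or when replicate 1 or 3 of either group is left out.

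Other genes of the pathway were read from 7 lists with 117 tested genes, of which 13 rose and 10 fell (19.7% called, against 21.5% of all tested genes). Their median log2 fold change was 0.018. Among the ER chaperones of the Hsp70 and Hsp90 system, 2 of 16 tested genes rose and 0 fell. Hspa5, which encodes BiP, the chaperone that also holds the stress sensors inactive, rose from 215 ± 23.1 to 272 ± 28.2 FPKM (log2 fold change 0.40, limma adjusted p = 0.026), and Cnpy2 rose by 0.20. Of 20 tested further isomerases and oxidation enzymes, Txndc5 rose by 0.13, while the membrane-bound isomerase Tmx1 fell by 0.19 and P4ha1, the collagen prolyl hydroxylase subunit that pairs with P4hb, fell by 0.53. With values as deposited Txndc5 and Cnpy2 were not called, and with scaling to column sums or without the variance trend Txndc5 was not. Without a filter on low values Hspa5 and P4ha1 were not called.

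In glycan processing, 0 of 11 tested genes rose and 1 fell (9.09% called, against 21.5% of all tested genes). That gene, Mlec, encodes malectin, a lectin for early glycans, and stood at 54.8 ± 0.697 FPKM in control and 46.7 ± 2.23 FPKM in LCN2 cells (log2 fold change -0.17, limma adjusted p = 0.047). Among 28 tested ERAD genes, 3 rose and 2 fell (17.9% called). The ubiquitin-conjugating enzyme gene Ube2j2 rose by 0.32 and Faf2 by 0.15, while the ubiquitin ligase gene Rnf5 fell from 4.82 ± 0.822 to 2.88 ± 0.276 FPKM and Vcp, the ATPase that pulls substrates from the membrane, fell by 0.17. The call of Faf2 was lost with values as deposited and scaled to column sums, and that of Ube2j2 with values as deposited and without a filter. Those of Mlec and Vcp were lost without a filter and without the variance trend.

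Transcripts of 2 of the stress sensors rose. Of 10 tested sensors and ER-stress transcription factors, 2 rose and 0 fell (20% called, against 21.5% of all tested genes). Ern1, which encodes IRE1 alpha, the enzyme that splices Xbp1 mRNA, stood at 16.8, 22.5 and 18.7 FPKM in control and at 28.3, 24.3 and 29.3 FPKM in LCN2 cells (log2 fold change 0.54, SE 0.10, limma adjusted p = 0.014). Atf6, the sensor that is cleaved in the Golgi, stood at 12.7, 14.3 and 12.3 FPKM in control and at 19.1, 16.0 and 19.9 FPKM in LCN2 cells (log2 fold change 0.51, SE 0.09, limma adjusted p = 0.012). In both genes the groups did not overlap, which held for 42.7% of all tested genes as deposited and 44.5% after scaling. LCN2 replicate 2 was the lowest treated library in both. The call of Ern1 was lost without control replicate 3 or LCN2 replicate 1 or 3. That of Atf6 was lost without control replicate 3 or LCN2 replicate 1, and both were lost with the replicate block. The transcript of the third sensor, PERK (Eif2ak3, named here after its values were seen), lay in the other direction without passing the test. It stood at 4.71, 5.30 and 5.16 FPKM in control and at 4.20, 4.14 and 4.17 FPKM in LCN2 cells (log2 fold change -0.17, 95% interval -0.31 to -0.033, limma adjusted p = 0.075, and 0.049 without the variance trend). In the list of the PERK and ATF4 branch 3 of 5 tested genes rose, and 0 fell (60% called, against 21.5% of all tested genes). Ddit3, the remaining entry of that list, was not matched in the deposited table. Atf4, the branch's transcription factor, rose by 0.54, Ppp1r15a, whose product restores translation by opposing PERK, by 1.10, and the pseudokinase gene Trib3 by 1.56. Whether these rises ran through PERK was not tested. With the replicate block, or without control replicate 3 or LCN2 replicate 1 or 3, 0 genes of the PERK and ATF4 list were called.

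In the translocon, signal peptidase and oligosaccharyltransferase list 2 of 27 tested genes rose and 5 fell (25.9% called, against 21.5% of all tested genes). Magt1 and Stt3b, which belong to the transferase that adds glycans to proteins, fell by 0.20 and by 0.15. The call of Stt3b was lost without the variance trend. Kdelr2, the receptor that returns escaped ER proteins such as calreticulin, fell from 101 ± 1.97 to 83.7 ± 5.63 FPKM. Srpr, a subunit of the receptor for the signal recognition particle, rose by 0.19, a call that was lost with values as deposited and scaled to column sums. Over all 7 lists the 13 rises became 4, 9 and 0 when replicates 1, 2 and 3 of the controls were left out. They became 0, 20 and 1 when replicates 1, 2 and 3 of the LCN2 group were. The 10 falls became 0, 12 and 1 when replicates 1, 2 and 3 of the controls were left out. With replicates 1, 2 and 3 of the LCN2 group left out they became 0, 13 and 0. Among all tested genes, in the same order of libraries, the 1213 rises became 415, 1032, 302, 179, 1659 and 298. The 1003 falls became 223, 758, 161, 89, 1501 and 180.

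**Figure D4:**
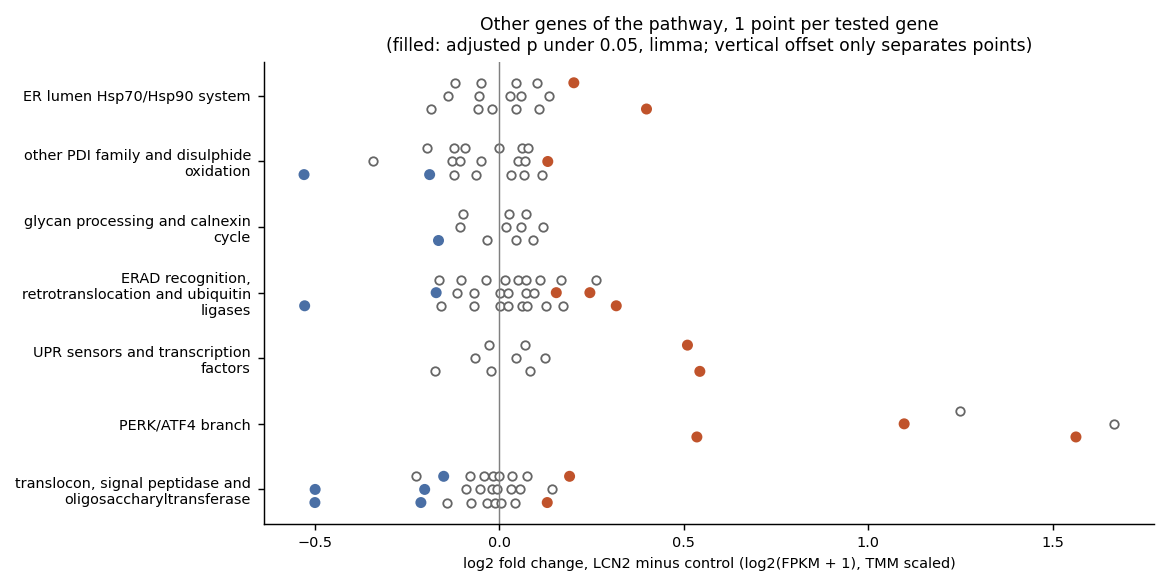
Log2 fold change (horizontal axis, LCN2 minus control on log2(FPKM + 1) after scaling) of the 117 tested genes of 7 pathway lists, filled where limma's adjusted p was under 0.05. Most points lie within 0.2 of 0, Ern1 and Atf6 stand at 0.54 and 0.51 in their list, and the 5 genes of the PERK and ATF4 branch lie between 0.54 and 1.67.

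Of the 94 pathway genes with a RefSeq window, 5 held an ERSE, and 1 of them, Hspa5, rose. The other 4, Hsp90b1, Dnajc3, Creld2 and Syvn1, were not called. Set beside the sequences printed above, members or list genes with a whole ERSE in the window thus included 1 rise (Hspa5) and 2 falls (Calr and Pdia6). A further 5 genes were without a call, Canx among them, and Herpud1, whose window ends within a partial match, was not counted. Over all tested genes with a window, ERSE was found in 14, of which 2 were called higher and 3 lower (35.7%, against 21.4% of all tested genes with a window). ERSE-II was found in 6 tested genes, of which 2 were called higher and 0 lower, and CARE in 59, of which 13 were called higher and 3 lower (27.1%). UPRE was found in 234 tested genes, of which 32 were called higher and 19 lower (21.8%). In the pathway lists UPRE was in 8 genes, of which 3 rose and 1 fell, and CARE in 3, of which 1 rose. These are counts of letter matches and carry no test.

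The profiles nearest to 3 members were sought among the 117 tested list genes, as the root mean square difference of mean-centred log2 values over the 6 libraries. For Herpud1 they were Atf4 (0.13) and Ern1 (0.18), where Herpud1 itself varied by 0.40. Atf4 stood at 101, 148 and 124 FPKM in the controls and at 182, 155 and 177 FPKM in LCN2 cells, so that, as in Herpud1, the first control replicate was the lowest library. For Xbp1 the nearest were Erlin1 (0.049) and Ube2g2 (0.059), both of ERAD, where Xbp1 itself varied by 0.16. Calr lay nearest to Stt3b (0.022) and Mlec (0.023), and itself varied by 0.074. These likenesses describe 6 libraries, share the difference between the groups and carry no test.

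**Figure D5:**
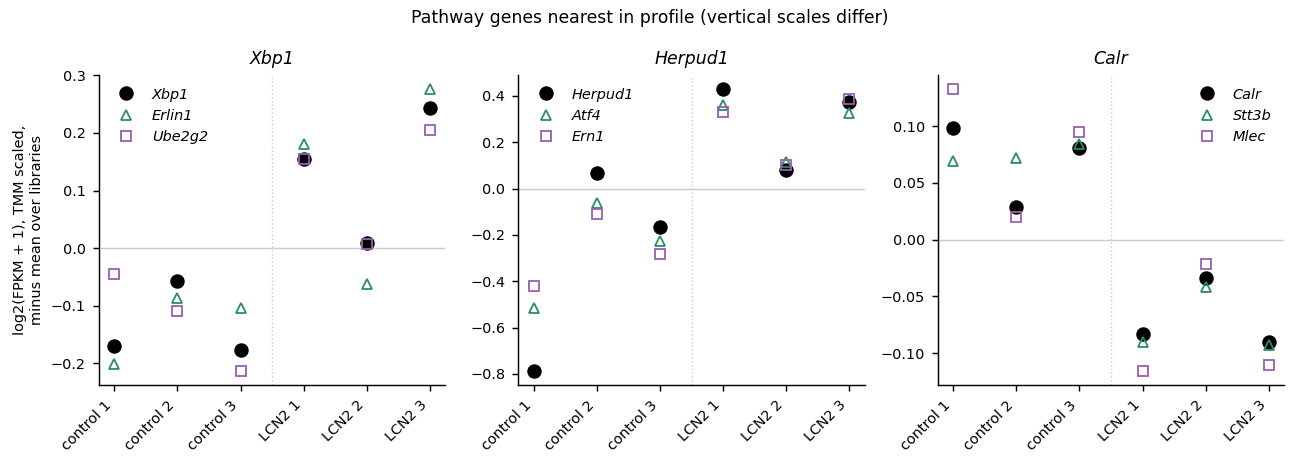
Mean-centred log2(FPKM + 1) after scaling (vertical axes, each with its own range) in the 6 libraries for Xbp1, Herpud1 and Calr, each with the 2 list genes nearest in profile. Herpud1 and Atf4 are lowest in control replicate 1, at -0.79 and -0.51, and LCN2 replicate 2 lies nearest the controls among the treated libraries in all 3 panels.

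As a check of the cell type, 4 of 5 epithelial markers were above 1 FPKM, and their sum lay between 1222 and 1285 FPKM in control and between 1181 and 1196 FPKM in LCN2 cells, while Cdh1 averaged 0.14 and 0.16 FPKM. Within that sum Krt8 fell (log2 fold change -0.27, limma adjusted p = 0.0096), Krt19 fell (-0.22, limma adjusted p = 0.023) and Krt18 rose (0.17, limma adjusted p = 0.031). Summed markers of leukocytes stayed at or below 1.80 FPKM, of mast cells at or below 0.153 and of endothelium at or below 0.66 in every library, and Cpa3, Mcpt4, Tpsb2, Fcer1a and Tek were listed at 0 in all. Of the 4 fibroblast markers in the table, Pdgfrb was listed at 0 and Dcn made up most of a sum between 489 and 545 FPKM in control and between 581 and 612 FPKM in LCN2 cells. Dcn rose (log2 fold change 0.30, limma adjusted p = 0.0062), and the part of these marker changes in the results above was not tested. In bulk RNA a change in the make-up of the cells and a change in RNA per cell cannot be told apart.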

How the data were processed

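The authors deposited 1 table with a value per gene and library. It is named as raw counts, yet 0.0% of the values above 0 in each library were whole at a tolerance of 1e-9. The values were treated as FPKM, a unit inferred from the deposited values: columns summed to between 391569 and 410808, and values times the longest annotated transcript in kilobases to between 1032628 and 1095179. The build was GRCm38, per the submitters' processing notes. Aligner, quantifier and strand setting: not given in the sources used here. Per the labels' protocols, libraries were made with a SMARTer mRNA kit. Ratios between libraries among 334 low genes with 1 transcript repeated in at most 5 genes (tolerance 0.002, log2), so whole reads were not recovered, depth is unknown, and no intervals from counts are given.

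Values were scaled by an unweighted trimmed mean of M-values over genes averaging 1 FPKM or more (trimming 0.3 of ratios and 0.05 of levels; factors 0.970 to 1.06) and tested as log2(FPKM + 1) in those 10309 genes with limma 3.58.1 in R 4.3.3, with a variance trend, no replicate term, two-sided, called at a Benjamini-Hochberg adjusted p under 0.05. The script was tested on simulated data. Means ± SD are of FPKM as deposited. The members, the 7 lists (128 entries, 122 in the table) and the settings were chosen with earlier results of these data known. Named are all members and, in each list, up to 4 called genes with the smallest adjusted p, or the 2 most abundant where none was called; for Xbp1, Herpud1 and Calr also the 2 nearest profiles. Genes named for a promoter element were named by that match. Overlap of exons was checked for the members only. Alternatives changed the scaling, pseudocount (0.1), filter (none, or a mean of 5 FPKM), variance trend, replicate block, and left out each library in turn. Coordinates are from GENCODE M21.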

Additional observations from a re-analysis of the deposited data

How the results depend on the processing

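The direction of 9 of the 10 members was the same in all 15 alternatives, and Pdia3, which was never called, turned negative in 4 of them. Scaling by median ratios, column sums or quantiles, a pseudocount of 0.1 and a filter at 5 FPKM left the calls at Calr, Pdia6, P4hb and Xbp1. With values as deposited, 0 members rose and 3 fell, with 7 rises and 17 falls in the pathway lists and 693 and 1680 among all genes, where the median of all genes moved to -0.056. Without a filter, 0 members rose and 2 fell (Pdia6 and P4hb), 5 pathway genes fell and 601 genes fell. Without the variance trend 0 members fell and Xbp1 was still called, the 3 falls having an adjusted p of up to 0.078 (limma). With the replicate block, 0 members rose and 0 fell, 0 pathway genes rose and 0 fell, and 181 genes rose and 81 fell. Deviations from the group means correlated across genes at -0.22, -0.26 and 0.0086 for replicate numbers 1, 2 and 3. No sample correlated best with its own number. Deviations within a group cancel out, so these correlations depend on one another. They cannot decide whether libraries of the same number shared a batch. When each library was left out in turn, members called higher ranged from 0 to 2 and lower from 0 to 3, pathway genes from 0 to 20 and from 0 to 13, and all genes from 179 to 1659 and from 89 to 1501. Where a group was left with 2 libraries, the spread was pooled over both groups. Why calls were lost was not tested, and with 3 libraries a group and unknown depth, differences of the size seen in Canx and Pdia4 lay within the error.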

Other observations

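Some textbook targets of spliced XBP1 and ATF6 outside the rule for named genes were looked at after their values were seen. Sdf2l1, a partner of ER Hsp40 proteins, stood at 4.18 ± 0.295 FPKM in control and 3.61 ± 0.250 FPKM in LCN2 cells (SD, n = 3 each), with a log2 fold change of -0.12 (limma adjusted p = 0.32). Dnajb9, a BiP co-chaperone, had 7.0 ± 0.592 and 7.44 ± 0.552 FPKM (log2 fold change 0.13, limma adjusted p = 0.26). For Creld2, Manf and Syvn1 the log2 fold changes were -0.059, -0.048 and 0.00091, with a limma adjusted p between 0.46 and 0.99. Hsp90b1, the ER form of Hsp90, averaged 343 ± 3.02 and 316 ± 11.0 FPKM, with a log2 fold change of -0.055 (95% interval -0.14 to 0.033, limma adjusted p = 0.32). Hspa5 and Herpud1, which are also known targets, are described above.

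Among the 9 oligosaccharyltransferase subunits of the lists, 4 fell, 1 rose and 4 were not called. Of all tested genes 9.73% were called lower and 11.8% higher, and this group was set apart after its values were seen. Beside Magt1 and Stt3b, the small subunits Dad1 and Ost4 fell by 0.50 each, from 63.7 ± 7.87 to 43.1 ± 8.06 FPKM and from 54.7 ± 4.86 to 37.1 ± 6.97 FPKM. Both calls were lost without a filter (limma adjusted p = 0.083 and 0.073) and with the replicate block. They were also lost when replicate 1 or 3 of either group was left out, and that of Dad1 without the variance trend. The catalytic subunit gene Stt3a had a log2 fold change of 0.13 (limma adjusted p = 0.047), a call that was lost under all 4 other scalings (limma adjusted p between 0.051 and 0.31) and in 5 of 6 fits that left out 1 library. Rpn1, Rpn2, Ddost and Ostc had log2 fold changes of -0.016, -0.0019, 0.0047 and -0.041. The genes of this paragraph other than Magt1 and Stt3b were chosen after their values were seen.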
